A study of Mus musculus with 5 samples.

Results

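The proteasome genes described here were taken from the count table as every symbol that begins with Psma, Psmb, Psmc, Psmd or Psme followed by a number. The rule found 44 symbols of 20583 in the table, held in 46 transcript rows, and the row with the highest mean count stood for each symbol. Of the 44, 31 encode constitutive subunits of the 26S proteasome, 5 encode the inducible set (Psmb8, Psmb9, Psmb10, Psme1 and Psme2), 3 encode assembly chaperones, 2 encode other activators and 2 are tissue-restricted subunits. The last, Psmc3ip, shares only its name and encodes a meiotic recombination factor. Psmb11 had counts of 0, 0 and 4 in wild type and 0 and 3 in NICcA and did not pass the filter on low counts, so 43 genes were tested.

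The proteasome is the protease that degrades ubiquitin-tagged proteins in the cytosol and nucleus. Its barrel, the 20S core, is built of rings of alpha subunits, which form the gate, and rings of beta subunits, of which Psmb5, Psmb6 and Psmb7 carry the catalytic sites. A 19S cap of ATPases (Psmc genes) and other subunits (Psmd genes) recognises, unfolds and feeds in the substrate. Interferon gamma induces the replacement subunits Psmb8, Psmb9 and Psmb10, which take the places of Psmb5, Psmb6 and Psmb7 in newly built cores, and the PA28 activator of Psme1 and Psme2. Cells of blood origin carry this immunoproteasome without stimulation, and it favours the peptides that MHC class I molecules present.

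RNA was sequenced from macrophages grown out of mouse bone marrow with 25 ng/ml M-CSF, the macrophage growth factor, for 7 days. The mice were 7 to 8 weeks old, on a C57BL/6 background, and either wild type (3 libraries, replicates 1, 2 and 3) or NICcA (2 libraries, replicates 2 and 3). The labels call the first group both wild type and Ctrl. They neither spell NICcA out nor name a Cre driver. The labels do not say that the libraries of a group came from separate mice, so the spread that p-values are set against is that of these libraries and may be technical.

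Each library held 57442309 to 76562905 counts over all rows, and the number of genes at 0 ranged from 2364 to 5254. The macrophage markers Emr1, Csf1r, Cd68, Itgam, Mertk, Fcgr1 and Lyz2 were detected in every library, at a summed level of 13641 to 20040 CPM in wild type and 11637 and 12332 CPM in NICcA. Of these 7, Lyz2, Cd68 and Mertk had both NICcA libraries below the wild type range, as 18.5% of all genes tested did. Fcgr1 had both above it, as 18.3% of all genes did. CPM is the count per 1000000 of a library scaled by TMM, edgeR's factor for library composition. In bulk RNA, fewer cells of a type and less RNA per cell cannot be told apart. NICcA replicate 2 stood apart in 12 interferon-stimulated genes, whose summed level was 1656 CPM there, 158 CPM in NICcA replicate 3 and 109 to 179 CPM in wild type. For the genes named with a log2 fold change, the value without that library is given beside the result, or among the alternatives at the end, where it differs by over 1.5 times or in sign.

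Upstream sequences of 4 catalytic genes are shown because these genes form the pairs that the results compare: Psmb8 against Psmb5 and Psmb9 against Psmb6. They are the 250 bases before the RefSeq start in build GRCm38.p6, 5′ to 3′ on the gene's strand. Capitals mark a match, on either strand, to TTCNNNGAA (the interferon gamma activated site, GAS), CCAAT (the box bound by NF-Y) or TGACNNNGC (the core of the antioxidant response element). The first is at chr17:34197945-34198194 (plus strand), the second at chr17:34187331-34187580 (minus), the third at chr14:54617996-54618245 (minus) and the fourth at chr11:70525107-70525356 (plus).
Psmb8: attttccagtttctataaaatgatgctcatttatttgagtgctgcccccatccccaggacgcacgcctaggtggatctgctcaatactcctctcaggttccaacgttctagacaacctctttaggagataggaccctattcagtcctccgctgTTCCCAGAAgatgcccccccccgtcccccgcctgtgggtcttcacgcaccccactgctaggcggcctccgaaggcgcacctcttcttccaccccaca
Psmb9: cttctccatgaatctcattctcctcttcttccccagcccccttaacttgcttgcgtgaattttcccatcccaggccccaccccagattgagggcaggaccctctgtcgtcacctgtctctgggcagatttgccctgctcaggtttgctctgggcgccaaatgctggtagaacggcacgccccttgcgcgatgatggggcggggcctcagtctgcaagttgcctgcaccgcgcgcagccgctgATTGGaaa
Psmb5: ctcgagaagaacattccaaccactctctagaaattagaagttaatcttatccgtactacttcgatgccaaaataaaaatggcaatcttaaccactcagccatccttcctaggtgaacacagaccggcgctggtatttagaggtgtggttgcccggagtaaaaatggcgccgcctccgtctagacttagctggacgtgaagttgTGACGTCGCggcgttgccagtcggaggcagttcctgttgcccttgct
Psmb6: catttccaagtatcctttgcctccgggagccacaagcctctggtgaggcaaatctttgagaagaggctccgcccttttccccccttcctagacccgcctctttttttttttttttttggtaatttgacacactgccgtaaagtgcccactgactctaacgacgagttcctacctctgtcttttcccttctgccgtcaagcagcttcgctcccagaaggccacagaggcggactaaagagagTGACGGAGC
Psmb8 held a GAS match, 97 to 89 bases before the start, and Psmb9 a CCAAT box on the opposite strand, 8 to 4 bases before. Psmb5 and Psmb6 each held a TGACNNNGC match, at 47 to 39 and 9 to 1 bases before the start. Psmb9 and Tap1, which encodes a chain of the peptide transporter, start 226 bases apart on opposite strands, so most of the stretch printed for Psmb9 lies between the starts of both genes.

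Promoter sequences were found for 37 of the 44 genes, among them all 5 inducible genes and 25 of the 31 constitutive subunits. A gene was counted if any of its promoters matched, while the percentages are of 32851 promoters, which belong to 27025 genes. The units therefore differ. The GAS letters were present in 1 of the 5 inducible and 0 of the 25 constitutive genes, against 7.02% of promoters. The interferon response core, searched as GAAA and GAAA with any 2 bases between on both strands, was present in 0 of 5 and in 2 of 25 (Psmb3 and Psmd4), against 2.98%. CCAAT was present in 1 of 5 and 10 of 25, against 33.8%. TGACNNNGC was present in 0 of 5 and in 4 of 25 (Psmb5, Psmb6, Psmc6 and Psmd12), against 10.2%. The loose kappaB pattern, GGG and CC with any 5 bases between, was present in 3 of 5 and 16 of 25, against 45.8%. Its matches overlapped one another in Psmb9 and in the constitutive genes Psmc2, Psmc4, Psmd12 and Psmd13. A match in these letters is no evidence of binding, and a window without one says nothing about a factor.

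In wild type macrophages the inducible genes were already expressed within the range of the constitutive subunits, and Psmb9 was the lowest of the 5. RPKM, the authors' reads per kilobase of transcript per 1000000 reads, allows levels to be set side by side between genes. Psmb8 was at 59.2 ± 12.3 RPKM (mean ± SD, n = 3 wild type libraries) and Psmb5, the chymotrypsin-like subunit whose place it takes, at 60.2 ± 15.9 RPKM. The difference between these levels was smaller than the spread of either. Psmb10 was at 45.7 ± 4.51 RPKM and its counterpart Psmb7, the trypsin-like subunit, at 27.9 ± 2.06 RPKM. Psmb9 was at 16 ± 4.33 RPKM and its counterpart Psmb6, the caspase-like subunit, at 86.2 ± 8.48 RPKM. Psme1 and Psme2, the chains of the PA28 ring, were at 58.8 ± 6.14 and 66.3 ± 3.21 RPKM. Psme3, which forms a nuclear relative of PA28, was at 9.45 ± 0.758 RPKM, and Psme4, the single-chain activator PA200, at 13.0 ± 1.27 RPKM.

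The constitutive subunits spanned 9.34 to 115 RPKM in wild type, with a median of 30.6. Psmd8, a lid subunit, had the highest level of all members (115 ± 9.99 RPKM), and Psmd11, also of the lid, the lowest of the 31 (9.34 ± 0.58 RPKM). The 7 alpha ring genes lay closer together, from Psma3 at 23.6 ± 2.41 to Psma7 at 48.8 ± 1.43 RPKM. Neighbours in that order such as Psma1 (43.4 ± 5.1 RPKM) and Psma2 (44.4 ± 2.03 RPKM) did not differ beyond their spread. Among the beta genes, Psmb6 and Psmb4 (84.0 ± 2.63 RPKM), a structural subunit, stood highest and overlapped in range. The ATPases ran from Psmc2 at 19.5 ± 1.72 to Psmc3 at 37.8 ± 2.19 RPKM. The assembly chaperones were low, from Psmd9 at 6.22 ± 0.211 to Psmd5 at 11.2 ± 0.671 RPKM. Psma8, the alpha subunit of germ cells, was at 0.666 ± 0.187 RPKM. Psmb11, the beta subunit of the thymic epithelium, was at 0.0037 ± 0.00642 RPKM.

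**Figure D1:**
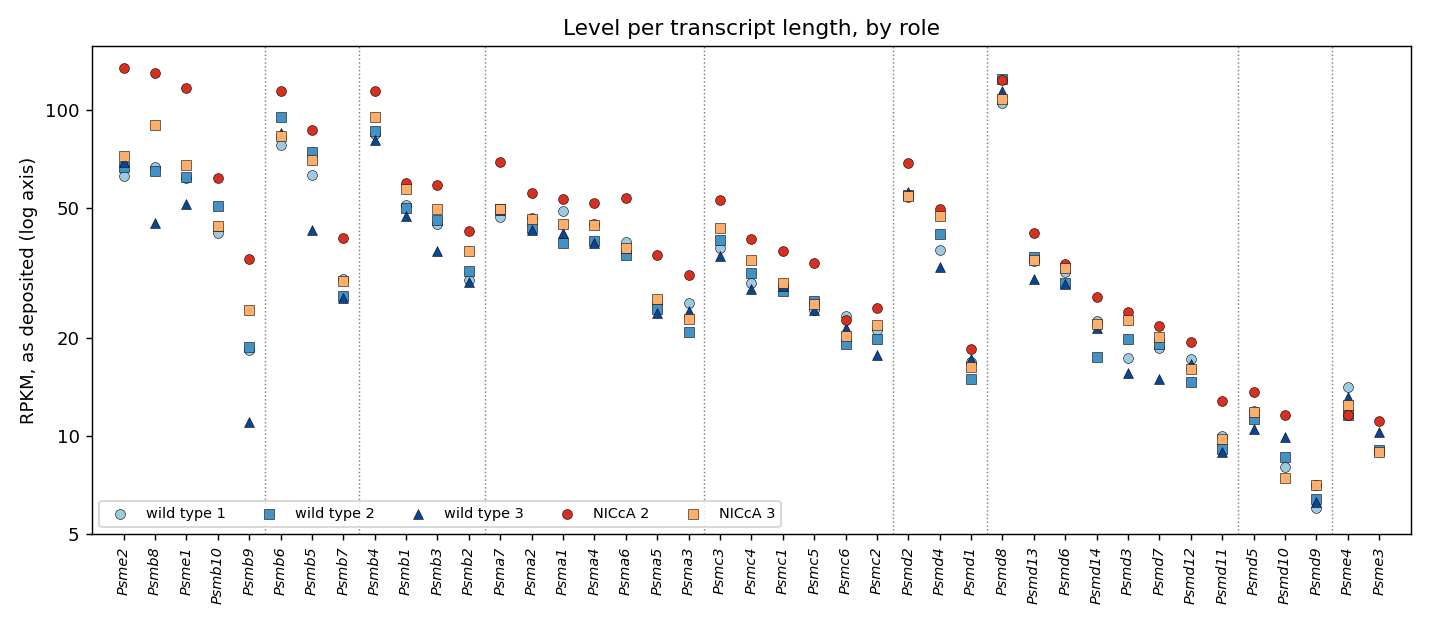
RPKM as deposited (log axis) of 41 genes in each library, grouped by role between the dotted lines (left to right: inducible set, catalytic beta, structural beta, alpha ring, base ATPases, other base subunits, lid, assembly chaperones, other activators) and ordered by the wild type mean. Psmd8 is the highest in wild type at 115 RPKM and Psmd9 the lowest of those drawn at 6.22 RPKM; NICcA replicate 2 (red circles) is the top point for most genes.

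The main comparison asked which of these genes differed between NICcA and wild type. Psmb8 and Psmb9 had both NICcA libraries above the wild type range in CPM, as 18.3% of all genes tested did. Psme1, Psme2 and Psmb10 were above it in NICcA replicate 2 only. That library, with or without NICcA replicate 3, was above the wild type range for 32.3% of all genes. None of the 43 passed edgeR's quasi-likelihood test after Benjamini-Hochberg adjustment over all 18267 rows (0 calls, against 4 of 13341 genes or 0.03% in all). At an unadjusted p below 0.05 edgeR listed 2 members, Psmb8 and Psmb9, both higher, where 7.68% of all genes were higher and 6.83% lower at that level. DESeq2 called 1 member higher, Psmb8 (adjusted p = 0.0466), against 2.05% of all genes called higher and 3.95% called in either direction. The edgeR adjusted p over the 43 ranged from 0.288 to 0.974.

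Psmb8 was at 101, 103 and 70.9 CPM across wild type replicates 1 to 3, against 186 and 129 CPM for NICcA replicates 2 and 3. Its groups did not overlap, and wild type replicate 3 was the lowest library. The log2 fold change, a difference between groups, was 0.78 (SE 0.23, edgeR adjusted p = 0.288). Psmb9 was at 18.2, 19.4 and 11.4 CPM across wild type, against 33.1 and 22.9 CPM for NICcA. It showed the same order of libraries as Psmb8, with wild type replicate 3 lowest and NICcA replicate 2 highest, and its log2 fold change was 0.78 (SE 0.27, edgeR adjusted p = 0.322). Without NICcA replicate 2 the log2 fold changes were 0.49 (SE 0.25, edgeR adjusted p = 0.901) for Psmb8 and 0.49 (SE 0.32, edgeR adjusted p = 0.901) for Psmb9.

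Psme1 was at 74.9, 78.7 and 65.0 CPM across wild type, against 134 and 77.7 CPM for NICcA replicates 2 and 3. Psme2 was at 69.6, 77.1 and 79.9 CPM across wild type, against 143 and 75.8 CPM for NICcA. For both chains of PA28, NICcA replicate 2 lay above every other library and NICcA replicate 3 lay within the wild type range in CPM. In deposited RPKM, which carries no TMM scaling, NICcA replicate 3 lay above the wild type range for both, at 68 against at most 62.6 for Psme1 and 72.2 against at most 69.3 for Psme2. Their log2 fold changes were 0.54 (SE 0.23, edgeR adjusted p = 0.356) and 0.53 (SE 0.26, edgeR adjusted p = 0.38), and without NICcA replicate 2 they were 0.09 and 0.00. Psmb10 was at 66.0, 83.0 and 72.2 CPM across wild type, against 92.5 and 65.4 CPM for NICcA, so the NICcA libraries lay on either side of the wild type ones. Its log2 fold change was 0.10 (SE 0.18, edgeR adjusted p = 0.806), and -0.17 without NICcA replicate 2.

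**Figure D2:**
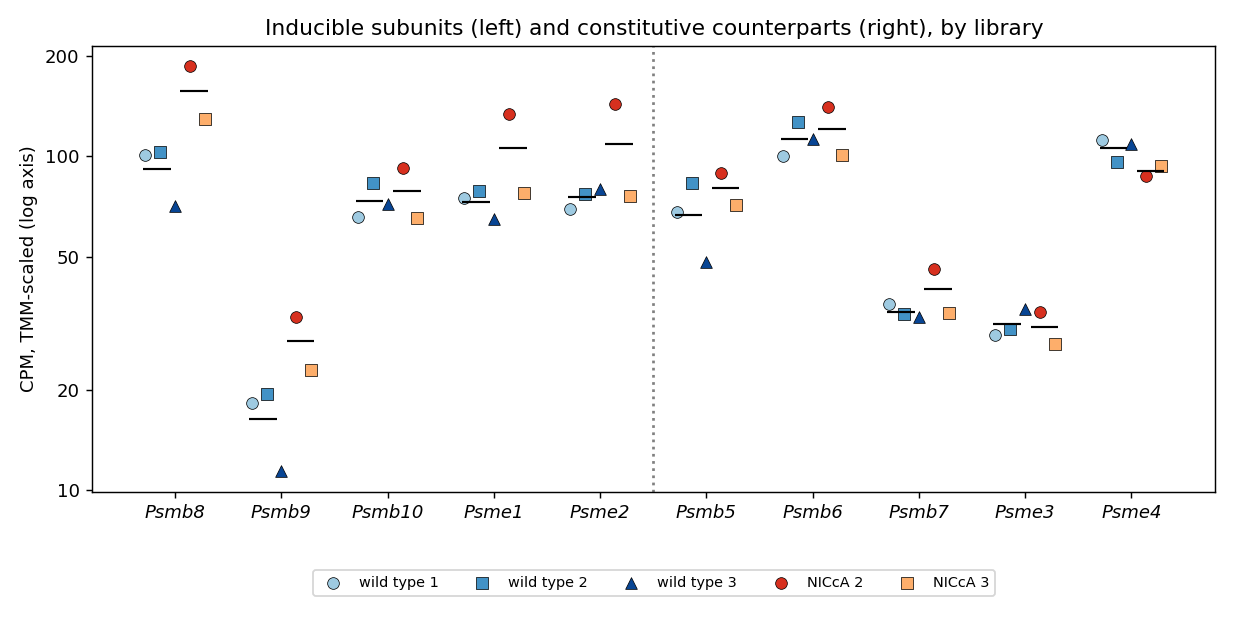
TMM-scaled CPM (log axis) in each library for the 5 inducible genes (left of the dotted line) and for their constitutive counterparts Psmb5, Psmb6 and Psmb7 and the activators Psme3 and Psme4 (right). Horizontal bars are the means of each group. Both NICcA libraries lie above all wild type ones for Psmb8 and Psmb9; for Psme1 and Psme2 NICcA replicate 2 stands alone at 134 and 143 CPM.

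The 5 genes had a median log2 fold change of 0.54, and the median over all genes tested was 0.00. Taken library by library, their median log2 CPM relative to the wild type mean was 0.92 for NICcA replicate 2 and 0.10 for NICcA replicate 3, beside 0.04, 0.18 and -0.16 for the wild type libraries. NICcA replicate 3 thus lay inside the wild type range as a median, with Psmb8 and Psmb9 as the genes above it. Interferon-stimulated genes moved with NICcA replicate 2: relative to the wild type mean their median log2 CPM was 4.21 there and -0.01 in NICcA replicate 3, with the wild type libraries from -0.52 to 0.29. edgeR called 0 of these 12, and 11 had an unadjusted p below 0.05, all higher, where 7.68% of all genes were higher at that level. DESeq2 called 1 of the 12 higher, against 2.05% of all genes. That gene was Cxcl10, a chemokine at 0.573, 0.669 and 0.304 CPM across wild type, against 26.6 and 0.652 CPM for NICcA. Isg15, a ubiquitin-like protein, was at 2.97 to 6.21 CPM across wild type, against 101 and 5.03 CPM for NICcA, and Ifi44 at 0.561 to 1.41 CPM, against 28.8 and 1.37 CPM. Without NICcA replicate 2 the log2 fold changes of Cxcl10, Isg15 and Ifi44 were 0.33, 0.10 and 0.31. The part of these genes in the result was not tested.

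The counterparts of the inducible genes overlapped between groups. Psmb5 was at 67.9, 83.3 and 48.2 CPM across wild type, against 88.9 and 71.7 CPM for NICcA (log2 fold change 0.27, SE 0.24, edgeR adjusted p = 0.594). Psmb6 was at 100, 127 and 113 CPM across wild type, against 140 and 101 CPM for NICcA (log2 fold change 0.09, SE 0.18, edgeR adjusted p = 0.825). Psmb7 was at 36.2, 33.6 and 33.0 CPM across wild type, against 46.0 and 34.0 CPM for NICcA (log2 fold change 0.22, SE 0.15, edgeR adjusted p = 0.495). In each of these genes NICcA replicate 2 was the highest library and NICcA replicate 3 lay within the wild type range. Without NICcA replicate 2 their log2 fold changes were 0.11, -0.17 and -0.01.

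Ratios within a library set each inducible subunit against the one it replaces, free of library scaling. The RPKM ratio of Psmb8 to Psmb5 was 1.06, 0.878 and 1.05 across wild type, against 1.49 and 1.28 for NICcA. The ratio of Psmb9 to Psmb6 was 0.234, 0.196 and 0.129 across wild type, against 0.303 and 0.291 for NICcA. For both pairs the NICcA libraries lay above all wild type libraries, and NICcA replicate 2 was the higher of the pair. The ratio of Psmb10 to Psmb7 was 1.39, 1.88 and 1.67 across wild type, against 1.53 and 1.47 for NICcA, so its groups overlapped.

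The log2 ratio differed between groups, as NICcA minus wild type, by 0.48 for Psmb8/Psmb5, by 0.71 for Psmb9/Psmb6 and by -0.12 for Psmb10/Psmb7. An exact two-sided permutation test over the 5 libraries gave p = 0.2, 0.2 and 0.6 (0.3, 0.3 and 0.6 adjusted over the 3 pairs). With 3 libraries against 2 this test cannot go below 0.2. Without NICcA replicate 2 the differences were 0.36 for Psmb8/Psmb5 and 0.69 for Psmb9/Psmb6. For Psmb9/Psmb6 the lowest log2 ratio was that of wild type replicate 3, -2.95, beside -2.10 and -2.35 for wild type replicates 1 and 2. The ranges of the differences with any 1 library left out are given among the alternatives at the end. Summed over the 3 pairs, the inducible genes made up 42.6%, 40.7% and 39.3% of the catalytic subunit RPKM in wild type and 48.3% and 46.3% in NICcA replicates 2 and 3. These shares are of RNA and do not give the makeup of assembled particles.

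**Figure D3:**
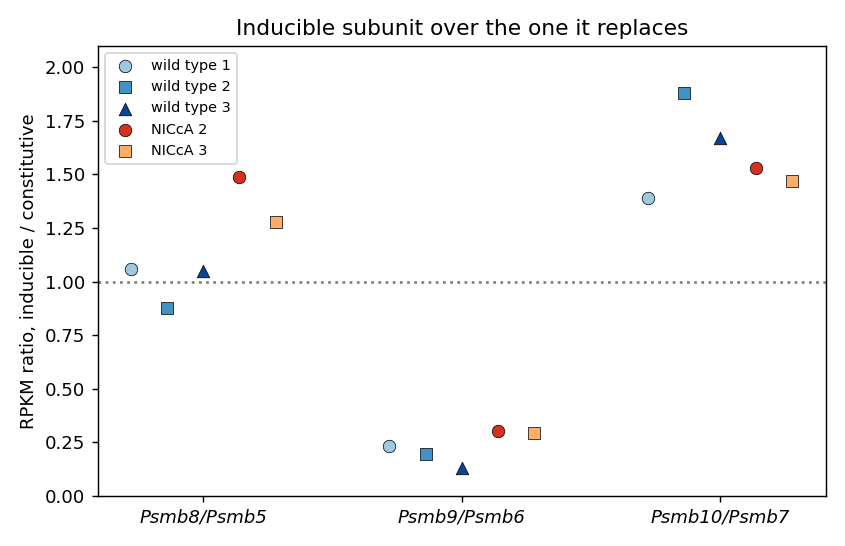
Ratio of RPKM (linear axis from 0; dotted line at 1) of each inducible catalytic gene over the constitutive gene it replaces, 1 point per library. The NICcA points lie above all wild type points for Psmb8/Psmb5 and Psmb9/Psmb6 and inside the wild type range, 1.39 to 1.88, for Psmb10/Psmb7.

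The constitutive subunits showed small differences, mostly positive, none of which passed the test. Of the 31, 28 had a positive log2 fold change, where 50.5% of all genes did, with a median of 0.14 and a range of -0.10 to 0.30. edgeR called 0, edgeR listed 0 at an unadjusted p below 0.05 and DESeq2 called 0. NICcA replicate 2 was above every wild type library for 28 of the 31, where it was so for 32.3% of all genes. NICcA replicate 3 was above every wild type library for 5 of the 31, against 27.7% of all genes. Relative to the wild type mean, the median log2 CPM of the 31 was 0.30 for NICcA replicate 2 and -0.02 for replicate 3, beside 0.01, 0.04 and -0.03 for wild type. Without NICcA replicate 2 the median log2 fold change was -0.02.

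Of the 4 structural beta genes, 3 had both NICcA libraries above every wild type library, as 18.3% of all genes did. Psmb2 was at 31.5, 34.9 and 32.3 CPM across wild type, against 42.5 and 36.7 CPM for NICcA (log2 fold change 0.27, SE 0.11, edgeR adjusted p = 0.355). Psmb4 was at 98.9, 105 and 99.0 CPM across wild type, against 128 and 106 CPM for NICcA (log2 fold change 0.21, SE 0.12, edgeR adjusted p = 0.428). Psmb1 was at 65.6, 66.9 and 63.3 CPM across wild type, against 73.1 and 69.7 CPM for NICcA (log2 fold change 0.13, SE 0.09, edgeR adjusted p = 0.51). In all 3 the margin of NICcA replicate 3 over the wild type range was small. Their log2 fold changes were 0.16, 0.07 and 0.09 without NICcA replicate 2.

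In the alpha ring, all 7 genes had their highest value in NICcA replicate 2, which was above every wild type library for 32.3% of all genes. For none of the 7 was NICcA replicate 3 above every wild type library, against 27.7% of all genes. Psma5 was at 38.3, 38.4 and 37.2 CPM across wild type, against 51.4 and 37.4 CPM for NICcA (log2 fold change 0.22, SE 0.15, edgeR adjusted p = 0.494). Psma7, the ring's most abundant gene per length, was at 51.2, 56.5 and 56.0 CPM across wild type, against 71.8 and 51.4 CPM for NICcA (log2 fold change 0.17, SE 0.16). Psma1 had the lowest log2 fold change of the ring, 0.07 (SE 0.13), with 75.8, 63.1 and 68.0 CPM across wild type, against 78.9 and 65.8 CPM for NICcA. The wild type values of Psma5 lay close together, and its NICcA values lay farther apart than those.

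In the base of the cap, the 6 ATPase genes that drive unfolding had log2 fold changes from -0.10 to 0.24. Psmc3 had the highest of these, 0.24, at 76.5, 84.1 and 74.9 CPM across wild type, against 102 and 83.4 CPM for NICcA (SE 0.12, edgeR adjusted p = 0.403), and without NICcA replicate 2 it was at a log2 fold change of 0.08. Psmc6 was the ATPase that was not highest in NICcA replicate 2, at 44.9, 38.4 and 43.1 CPM across wild type, against 41.6 and 37.0 CPM for NICcA (log2 fold change -0.10, and -0.19 without NICcA replicate 2). Psmd4, a ubiquitin receptor, was at 57.6, 67.0 and 53.1 CPM across wild type, against 73.2 and 69.3 CPM for NICcA (log2 fold change 0.27, SE 0.13, edgeR adjusted p = 0.374), with no overlap. Of the large scaffold subunits, Psmd1 differed by -0.03 (SE 0.11) and Psmd2 by 0.05 (SE 0.14) as log2 fold changes, and by -0.13 each without NICcA replicate 2. Psmd2 was at 197, 210 and 213 CPM across wild type, against 240 and 189 CPM for NICcA.

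The 8 lid genes, whose complex removes ubiquitin chains, had log2 fold changes from -0.10 to 0.30. Psmd3 was at 45.8, 54.8 and 43.1 CPM across wild type, against 60.7 and 57.0 CPM for NICcA (log2 fold change 0.30, SE 0.13, edgeR adjusted p = 0.362). Its groups did not overlap, and both NICcA libraries were close to each other. Psmd8 was at 195, 243 and 223 CPM across wild type, against 220 and 192 CPM for NICcA (log2 fold change -0.10, SE 0.14, and -0.20 without NICcA replicate 2).

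**Figure D4:**
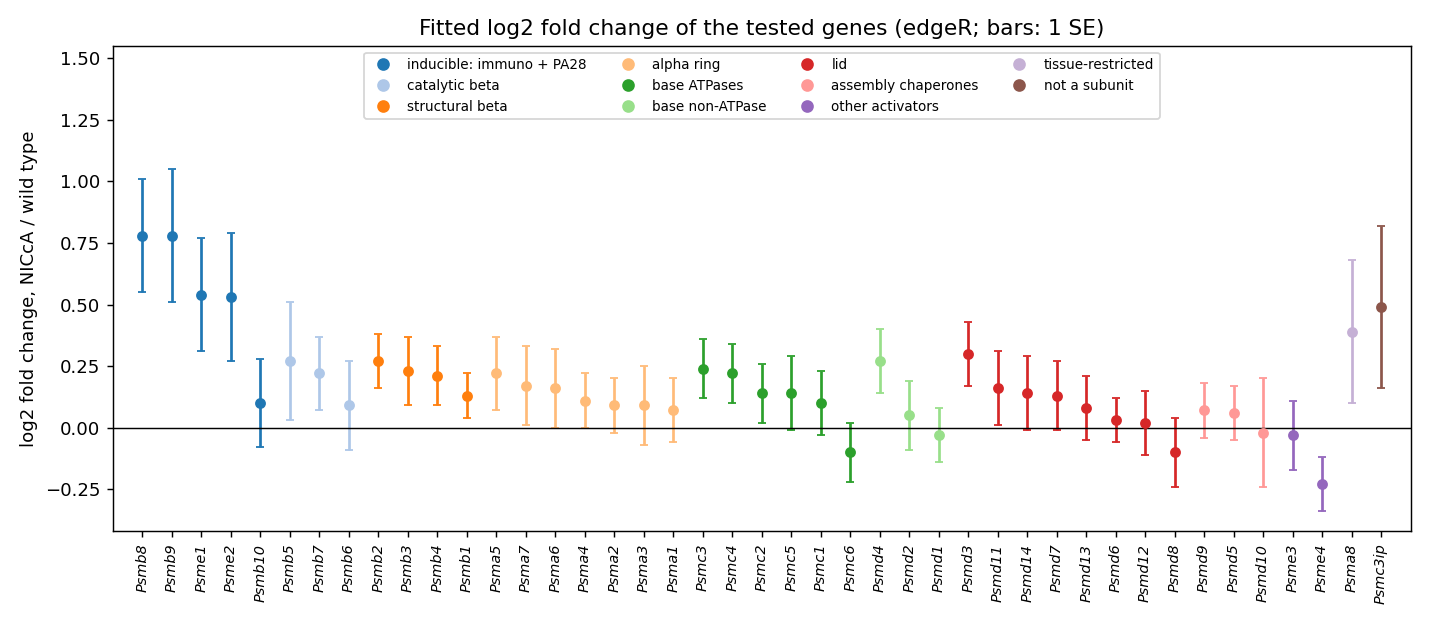
Fitted log2 fold change (NICcA over wild type, linear axis) of the 43 tested genes with bars of 1 SE, coloured by role and ordered within it. Psmb8 and Psmb9 stand highest at 0.78, and Psme4 lowest at -0.23; the 31 constitutive subunits lie between -0.10 and 0.30.

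The activators outside the inducible set had negative log2 fold changes. Psme4 was at 112, 96.1 and 109 CPM across wild type, against 87.5 and 93.2 CPM for NICcA (log2 fold change -0.23, SE 0.11, edgeR adjusted p = 0.383). It was the member, 1 of 43, with both NICcA libraries below every wild type library, as 18.5% of all genes were. Psme3 was at 29.1, 30.4 and 34.8 CPM across wild type, against 34.2 and 27.4 CPM for NICcA (log2 fold change -0.03, SE 0.14). The chaperones that assemble the base, Psmd5, Psmd9 and Psmd10, had log2 fold changes of 0.06, 0.07 and -0.02. Psmd10, also known as gankyrin, was at 14.4, 16.1 and 18.6 CPM across wild type, against 19.8 and 12.6 CPM for NICcA. Psma8 was at 1.84, 1.19 and 1.24 CPM across wild type, against 1.65 and 2.08 CPM for NICcA (log2 fold change 0.39, SE 0.29), and Psmc3ip differed by 0.49 (SE 0.33).

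Over the 43 genes, both NICcA libraries lay above every wild type library in 8 (Psmb8, Psmb9, Psmb1, Psmb2, Psmb4, Psmd3, Psmd4 and Psmc3ip), beside 18.3% of all genes tested. With TMM scaling the count, 18.6% of the 43, was thus near the share in the whole table. It was 13 (30.2%) with upper-quartile scaling, beside 18.9% of all genes. It was 20 (46.5%) both with no scaling factors, beside 29.2% of all genes, and on deposited RPKM, beside 30.4% of all genes. The reading on RPKM was chosen after seeing the data. With no scaling factors and on RPKM with a pseudocount of 0.1, the median log2 fold change of all genes was 0.11. The inducible median of 0.54 then read 0.64 and 0.61, and the constitutive median of 0.14 read 0.24 and 0.25, so each kept about the same distance to all genes.

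**Figure D5:**
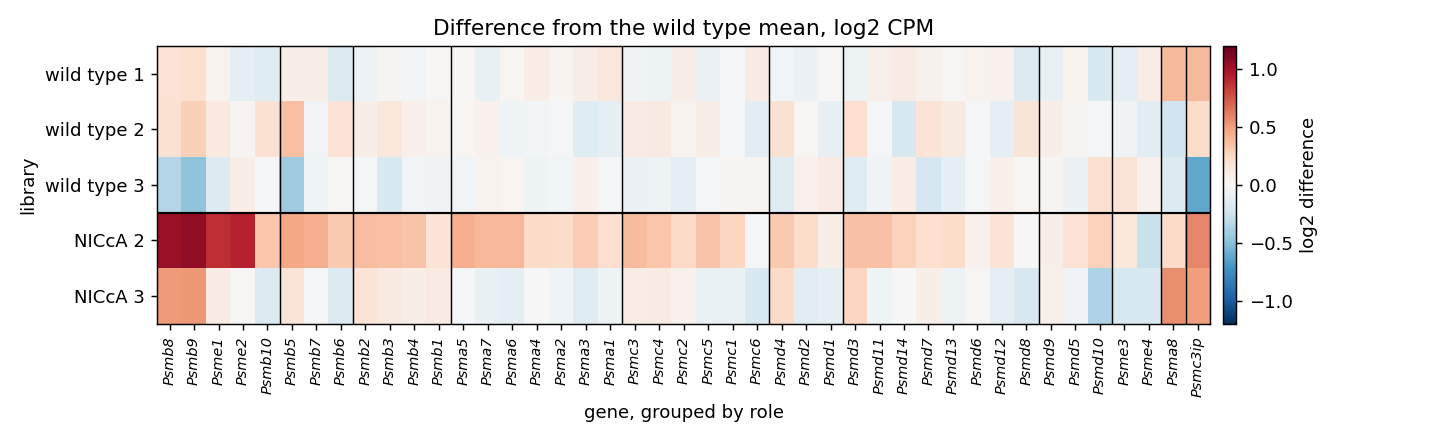
Difference of each library from the wild type mean in log2 CPM (red above, blue below) for the 43 tested genes, grouped by role between vertical lines, with NICcA libraries below the thick line. NICcA replicate 2 is above the wild type mean in nearly every column and most in Psmb8, Psmb9, Psme1 and Psme2; in NICcA replicate 3 Psmb8 and Psmb9 stand out among the inducible genes.

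Genes that build or accompany the proteasome but fall outside the symbol rule had a median close to that of all genes. Of 15 such genes, edgeR and DESeq2 called 0, edgeR listed 0 at an unadjusted p below 0.05, 8 had a positive and 7 a negative log2 fold change, and the median was 0.08. Pomp, the maturation factor of the core, was at 60.3, 59.3 and 65.1 CPM across wild type, against 77.6 and 64.1 CPM for NICcA (log2 fold change 0.20, SE 0.12, edgeR adjusted p = 0.443, and 0.06 as log2 fold change without NICcA replicate 2). Psmg2, a chaperone of the alpha ring, and Ube3c, a ubiquitin ligase bound to the cap, differed by 0.29 (SE 0.17) and -0.19 (SE 0.11) as log2 fold changes. Of 5 ubiquitin and ubiquitin-activating genes, 0 were called by either tool, 0 had an unadjusted edgeR p below 0.05, and the median log2 fold change was 0.10. Among these, the activating enzymes Uba6 and Uba1 and the ubiquitin gene Ubb had log2 fold changes of -0.25 (SE 0.16), 0.19 (SE 0.19) and 0.20 (SE 0.23).

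Of 7 regulators of proteasome genes, 5 were higher in NICcA replicate 2 than in all wild type libraries, against 32.3% of all genes, and 0 were so in NICcA replicate 3, against 27.7%. Nlrc5, the activator of MHC class I genes, was at 42.9, 44.0 and 34.7 CPM across wild type, against 81.4 and 36.3 CPM for NICcA (log2 fold change 0.54, SE 0.33). Irf1, the interferon-induced factor that acts on immunoproteasome genes, was at 51.6, 51.6 and 50.9 CPM across wild type, against 80.1 and 50.4 CPM for NICcA (log2 fold change 0.34, SE 0.19). Both were high in NICcA replicate 2 alone, and without it their log2 fold changes were -0.16 and -0.03. Ddi2, the protease that activates Nfe2l1, was at 97.8, 93.1 and 115 CPM across wild type, against 86.2 and 92.6 CPM for NICcA (log2 fold change -0.19, SE 0.13, edgeR adjusted p = 0.49). Both NICcA libraries lay below its wild type range, as in 18.5% of all genes, NICcA replicate 3 by a small margin. Nfe2l1, the factor that raises constitutive subunit genes when the proteasome is blocked, was at 132, 158 and 133 CPM across wild type, against 167 and 130 CPM for NICcA (log2 fold change 0.08, SE 0.15). Of the 7, 0 were called by either tool and 0 had an unadjusted edgeR p below 0.05.

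The transporter genes on chromosome 17 that lie next to Psmb8 and Psmb9 had both NICcA libraries above the wild type range, Tap1 by a small margin in NICcA replicate 3. In the RefSeq order the genes run Psmb9, Tap1, Psmb8, Tap2. Tap1 was at 71.7, 71.3 and 51.5 CPM across wild type, against 169 and 77.4 CPM for NICcA (log2 fold change 0.93, SE 0.33, edgeR adjusted p = 0.326). Tap2 was at 81.2, 65.3 and 44.7 CPM across wild type, against 123 and 102 CPM for NICcA (log2 fold change 0.82, SE 0.25, edgeR adjusted p = 0.299). In both, as in Psmb8 and Psmb9, wild type replicate 3 was lowest and the groups did not overlap. Without NICcA replicate 2 the log2 fold change of Tap1 was 0.25 (SE 0.23) and that of Tap2 was 0.67 (SE 0.32), both with an edgeR adjusted p of 0.901. B2m, the light chain of MHC class I, and Pdia3, of the loading complex, lay lower in both NICcA libraries (log2 fold changes -0.39 and -0.36, DESeq2 adjusted p = 0.0324 and 0.0436, edgeR adjusted p = 0.319 and 0.299). Of the 10 peptide loading genes, 2 had both NICcA libraries above the wild type range and 3 had both below it. The shares of all genes were 18.3% and 18.5%. edgeR called 0 of the 10, against 0.03% of all genes, and DESeq2 called B2m and Pdia3, against 3.95%. At an unadjusted edgeR p below 0.05, B2m and Pdia3 were lower and Tap1 and Tap2 higher, 4 of the 10. At that level 6.83% of all genes were lower and 7.68% higher.

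Markers of other cell types were measured beside these results. Of 7 dendritic cell markers, 5 (Flt3, Zbtb46, Cd209a, Dpp4 and Xcr1) had both NICcA libraries above the wild type range, against 18.3% of all genes, and the median log2 fold change of the 7 was 1.10. edgeR called 0 of the markers of any cell type, and 7 had an unadjusted p below 0.05. These were 1 higher and 3 lower of 7 macrophage markers, 2 higher of 7 dendritic cell markers and 1 higher of 7 neutrophil markers. At that level 7.68% of all genes were higher and 6.83% lower. DESeq2 called 3 markers higher, where it called 2.05% of all genes higher: Dpp4 (adjusted p = 0.0317), the neutrophil marker Ngp (adjusted p = 0.0353) and the macrophage marker Fcgr1 (adjusted p = 0.0413). The summed level of the 7 dendritic cell markers, mostly Itgax, was 717 to 901 CPM in wild type and 1012 and 658 CPM in NICcA. Flt3 and Xcr1 stayed below 1 CPM in every library. The 4 T cell markers summed to 0.478 to 0.759 CPM in wild type and 1.21 and 1.04 CPM in NICcA, and the 5 B cell markers to 0.416 to 1 CPM and 0.568 and 0.665 CPM. The 7 neutrophil markers summed to 54.5 to 103 CPM in wild type and 110 and 126 CPM in NICcA. The 5 erythroid markers summed to 0.45 to 0.607 CPM in wild type and 1.05 and 0.721 CPM in NICcA. The 5 stromal markers summed to 16.1 CPM in wild type replicate 1 and 1.27 to 2.68 CPM in the other libraries. The part of these cells in the values of Psmb8 and Psmb9 was not tested.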

How the data were processed

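The authors deposited transcript counts and RPKM values for 3 wild type and 2 NICcA libraries in tables of 27457 rows. Bowtie 0.12.2 and the build mm8 are listed in the submitters' processing notes without their roles; the sources used here name neither counting tool nor strand setting. RPKM as deposited was used to compare levels between genes and for ratios. edgeR 4.0.16 (R 4.3.3) tested the deposited counts (filterByExpr, then TMM scaling, and a quasi-likelihood fit of NICcA against wild type over 5 libraries), with Benjamini-Hochberg adjustment over 18267 rows and a threshold of 0.05. SEs were obtained from the log2 fold change and the F statistic. For each symbol the row of highest mean count was used; Psmd10 and Psme2 each had a further row. Log2 differences from the wild type mean used log2 CPM with a prior count of 2. DESeq2 1.42.0, limma 3.58.1 (voom, and log2 RPKM with pseudocounts of 1 and 0.1), other scalings and filters, a replicate block and each library left out were alternatives. The common biological coefficient of variation was 22.5%, which with 3 against 2 libraries limits what could be called. Of 47 symbols turned into dates, 46 were renamed by RefSeq accession. Named with values were the inducible genes and their counterparts, the highest and lowest log2 fold change and the highest RPKM of each other class, and the 3 smallest p of each pathway list plus Pomp, Nfe2l1, Irf1, Nlrc5 and Tap1. Some genes of these lists are not reported here. The genes and lists were chosen with earlier results of these data known. Promoters are from RefSeq tables of GRCm38.p6, which differs from mm8, so they were matched by symbol. The count fit was tested on simulated data.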

Additional observations from a re-analysis of the deposited data

How the results depend on the processing

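No proteasome gene was called under any alternative except DESeq2, which called 1 (Psmb8). The number of genes called in the whole table, 4 with edgeR, was 11 with no filter on low counts, 527 with DESeq2, 2 with limma-voom and with limma on log2(RPKM + 1) or log2(RPKM + 0.1), and 0 to 44 when 1 library was left out (0 without wild type replicate 2 or NICcA replicate 2, 44 without NICcA replicate 3). With the replicate number as a block it was 0, the proteasome genes called were 0, and the inducible and constitutive medians were 0.52 and 0.15; the deviations of same-numbered libraries correlated at 0.2 and 0.166 over only 2 pairs, so the numbers are not taken as a pairing. Under the block the log2 fold change of Psmb6 was -0.01. Those of Psmb8 and Psmb9 were 0.86 (SE 0.12, edgeR adjusted p = 0.0973) and 0.89 (SE 0.14, edgeR adjusted p = 0.0996), both still above the threshold.

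The 8 genes with both NICcA libraries above wild type (18.6% of 43, against 18.3% of all genes) became 13 (30.2%) with upper-quartile scaling, against 18.9% of all genes, and 20 (46.5%) with no scaling factors or on RPKM, against 29.2% and 30.4%. The reading on RPKM was chosen after seeing the data. With 1 library left out the count was 8 to 37: 13 without wild type replicate 1 (25.3% of all genes), 15 without wild type replicate 2 (27.5%), 8 without wild type replicate 3 (21.5%), 9 without NICcA replicate 2 (27.7%) and 37 without NICcA replicate 3 (32.3%). Leaving out 1 library moved the inducible median between 0.09 and 0.92 and the constitutive median between -0.02 and 0.30, the lower values without NICcA replicate 2 and the higher without NICcA replicate 3. Of the 43 genes, 37 had a positive log2 fold change; 42 did with no scaling factors and 19 without NICcA replicate 2. The pair differences ranged from 0.36 to 0.59 (Psmb8/Psmb5), 0.47 to 0.90 (Psmb9/Psmb6) and -0.24 to -0.02 (Psmb10/Psmb7) with 1 library left out.

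Some small log2 fold changes turned sign. With no scaling factors Psmc6, Psmd1, Psmd10, Psmd8 and Psme3 were at 0.00, 0.08, 0.09, 0.01 and 0.08; on log2(RPKM + 1) at 0.01, 0.08, 0.06, 0.02 and 0.07, with or without the filter; on log2(RPKM + 0.1) at 0.01, 0.09, 0.07, 0.02 and 0.08. With 1 library left out, log2 fold changes that turned sign ranged from -0.03 to 0.64 for Irf1, -0.12 to 0.25 for Nfe2l1, -0.16 to 1.01 for Nlrc5, -0.07 to 0.20 for Psma1, -0.02 to 0.44 for Psma5, -0.09 to 0.40 for Psma7, -0.17 to 0.33 for Psmb10, -0.17 to 0.31 for Psmb6, -0.01 to 0.43 for Psmb7, -0.13 to 0.07 for Psmd1, -0.38 to 0.27 for Psmd10, -0.13 to 0.22 for Psmd2, -0.05 to 0.17 for Psmd5, -0.20 to 0.13 for Psme3, -0.13 to 0.45 for Uba1 and -0.17 to 0.49 for Ubb; each lowest value was without NICcA replicate 2 and each highest without NICcA replicate 3. The cause was not tested. Of the alternatives for named genes, 694 kept direction and side of the threshold, 40 turned sign and 7 passed it.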
